A study of Mus musculus with 10 samples.

Results

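The genes described here encode the transporters and enzymes of folate, methionine and serine one-carbon metabolism. They are 36 named genes, taken by symbol from the 25050 genes of a count table made from mouse brains, and all 36 were found. The series compared 5 brains labelled wildtype (Abcc5+/+) with 5 labelled knockout (Abcc5-/-) by sequencing of polyadenylated RNA, and every mouse had the FVB/NJ strain background. The labels call each sample a whole brain and name no treatment, sex or age of the mice. Abcc5 encodes an efflux transporter of organic anions, which in membrane vesicles can carry folates and the antifolate methotrexate, and the series title concerns its transport of glutamate conjugates and analogs. Of the 36 genes, 34 had enough counts to be tested. Ftcd and Dmgdh did not.

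Folates are vitamins that carry single carbon units between enzymes. Cells take them up through membrane carriers and then attach a chain of glutamates, which keeps the folate inside and improves its binding to enzymes. The carbon units come mainly from serine and glycine. They are handled by parallel sets of enzymes in the mitochondrion and the cytosol, which are joined by formate, and they are spent on purines, on thymidylate and on the remethylation of homocysteine to methionine. Methionine in turn gives S-adenosylmethionine, the methyl donor of most methylation reactions. In the brain, glial cells, astrocytes above all, hold much of the serine synthesis and of the glycine cleavage activity.

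The libraries held 7731294 to 23588335 counts. Levels are given as CPM, the counts of a gene scaled to a common library total, with the trimmed mean of M-values (TMM) used to adjust the totals between libraries. Differences are log2 fold changes of knockout over wildtype from edgeR's quasi-likelihood test, with p-values adjusted over all 14526 tested genes. Abcc5 itself was at 299.2 to 325.9 CPM in wildtype and 210.7 to 226.2 CPM in knockout libraries (log2 fold change -0.51, SE 0.041, edgeR adjusted p 6.35e-06). The transcript was thus lower in every library labelled knockout but not lost. Markers of neurons, astrocytes, oligodendrocytes, microglia and endothelium were present in all 10 libraries. Knockout replicate 3 had 93.1 CPM over 8 cerebellar marker genes, against 1040 to 1255 CPM in the other 9 libraries, so that library goes against the label of a whole brain, and differences that moved by over 1.5 times without it are given both ways. The labels do not say how the mice were bred or housed. The p-values set each difference between the groups against the spread within the groups of these 10 brains. In bulk tissue, fewer cells of a type and less RNA per cell cannot be told apart.

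No gene of the set passed the test. None of the 34 had an edgeR adjusted p under 0.05, which 1.18% of all tested genes had, 0.213% higher and 0.964% lower in knockout. The smallest adjusted p was 0.129, for Mat2a. An unadjusted p under 0.05 was reached by 1 gene, Mat2a, which was lower in knockout, while 14.8% of all tested genes reached it and 8.03% did so on the lower side. That count depended on the processing and on single libraries. Over all 10 libraries, upper-quartile scaling in edgeR gave Fpgs and Phgdh higher and Mat2a lower, beside 15.4% of all tested genes. Limma-voom gave Fpgs higher and Slc25a32 and Mat2a lower, beside 15.2%. With sample weights it gave Fpgs and Phgdh higher and Dld and Mat2a lower, beside 22.2%. DESeq2 gave Mat2a alone, beside 11.8%. Leaving out knockout replicate 3 gave 4 genes, with Fpgs (edgeR p 0.0235), Shmt1 (0.023) and Aldh1l1 (0.0414) higher and Mat2a (0.00393) lower, beside 17.9% of all tested genes. Leaving out wildtype replicate 1 also gave 4, with Fpgs (edgeR p 0.0349) and Phgdh (0.00541) higher and Dld (0.0116) and Mat2a (0.00285) lower, beside 18.4%. With either of these libraries left out, no gene of the set had an adjusted p under 0.05. DESeq2 and limma-voom also called none of the 34, though DESeq2 gave no adjusted p for Shmt1, Mthfs, Tyms and Gnmt. Limma-voom with sample weights called 1, again Mat2a. In all 34 genes the CPM ranges of the groups overlapped, while over all tested genes the groups were separate in 4.19%. The median log2 fold change was 0.0058, beside 0.0042 over all tested genes, and the median size of a change was 0.052, beside 0.078.

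The intervals show how large a difference these libraries leave room for. The 95% interval of the difference lay within a 1.2-fold change in either direction for 24 of the 34 genes and within 1.5-fold for 32. The exceptions at 1.5-fold were Shmt1 and Gnmt, which had few counts. For Gnmt the interval reached 1.93-fold higher. Within wildtype the coefficient of variation ran from 2.06% for Gart to 39.3% for Gnmt, with a median of 7.61%.

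**Figure D1:**
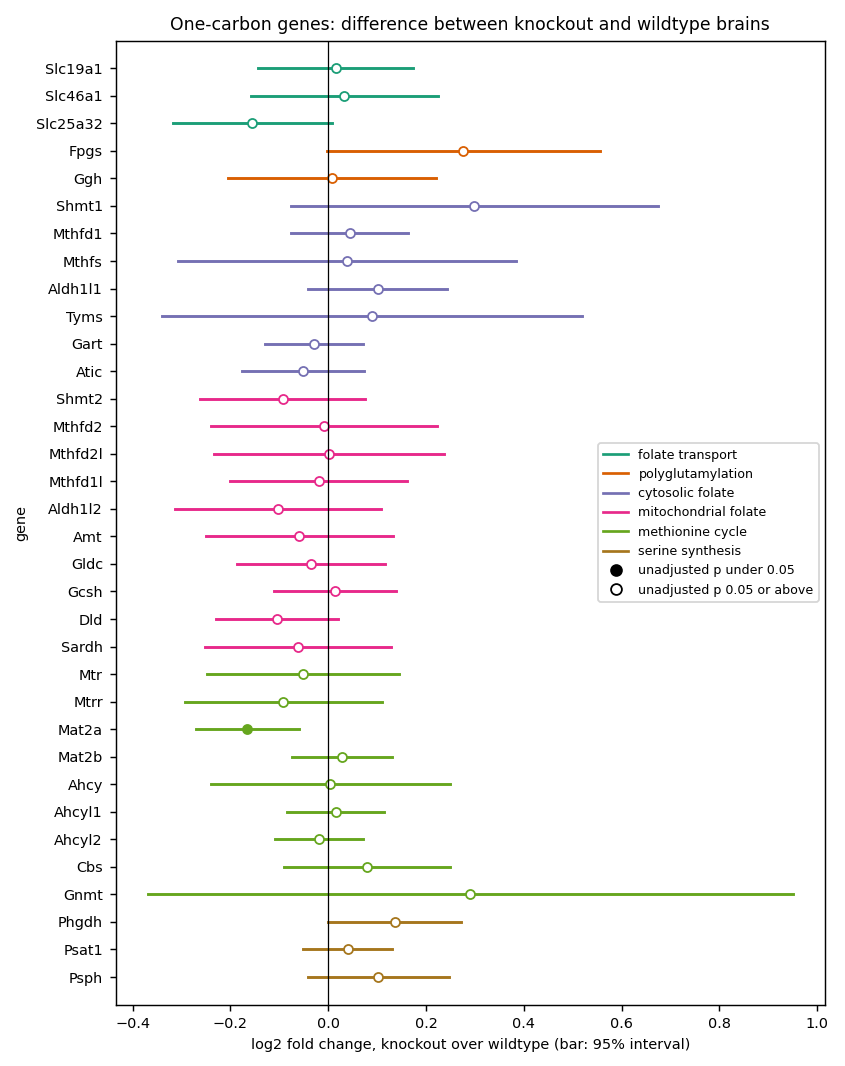
Log2 fold change of knockout over wildtype for the 34 tested one-carbon genes (points) with 95% intervals (bars), coloured by branch of the pathway. The filled point is Mat2a, the single gene with an unadjusted p under 0.05 in the plotted edgeR fit over all 10 libraries. That count became 4 without knockout replicate 3 or without wildtype replicate 1, and it varied with the processing. All other intervals reach or cross 0 at the plotted scale.

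Folate carriers came first in the pathway, and none differed detectably. Slc19a1, the reduced folate carrier, was at 20.0, 17.6, 17.5, 18.7 and 18.6 CPM in wildtype replicates 1 to 5 and at 17.1, 20.4, 17.3, 20.3 and 17.1 CPM in the knockout replicates. The knockout values lay on both sides of the wildtype range (log2 fold change 0.015, SE 0.075, edgeR adjusted p 0.959), and its span overlaps that of Col18a1. Slc46a1, the proton-coupled folate transporter, was at 10.5, 12.3, 12.4, 10.9 and 11.7 CPM in wildtype and at 12.2, 11.3, 9.37, 12.6 and 12.6 CPM in knockout. Its lowest value was in knockout replicate 3, and its log2 fold change was 0.032 over all libraries (edgeR adjusted p 0.914) and 0.086 when that one was left out.

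Slc25a32, the carrier that brings folate into mitochondria, had the smallest p of the carriers. It was at 12.9, 12.1, 13.9, 11.8 and 12.4 CPM in wildtype and at 11.9, 10.8, 10.8, 11.1 and 12.5 CPM in knockout. All 5 knockout values were below the wildtype mean of 12.6 CPM, but 2 of them lay inside the wildtype range. The log2 fold change was -0.15 (SE 0.076, edgeR adjusted p 0.364), and the fold interval was 0.803 to 1.01. It was -0.087 among the 7 libraries with at most 11479995 counts and -0.23 among the 3 deeper ones, which are wildtype replicate 1 and knockout replicates 2 and 4. Here and below, values of the 3 deeper libraries are differences of mean log2 CPM against their only wildtype library, not fitted fold changes.

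The pair of enzymes that set the glutamate chain was examined next, and neither passed. Fpgs (folylpolyglutamate synthase, chromosome 2, 32538129 to 32559657 in the table's coordinates, whose build is not given in the sources used here) adds glutamates. It was at 8.76, 9.32, 5.93, 8.11 and 6.53 CPM in wildtype and at 10.4, 10.6, 8.31, 10.1 and 7.20 CPM in knockout. Knockout replicates 1, 2 and 4 were above every wildtype library, and knockout replicates 3 and 5 lay inside the wildtype range. The means were 7.73 ± 1.45 and 9.33 ± 1.5 CPM (SD, n = 5 each), and the log2 fold change of 0.28 (SE 0.131) did not pass (edgeR p 0.0514, adjusted p 0.343). The interval ran from 0.999-fold to 1.47-fold. The p of Fpgs was 0.0422 with upper-quartile scaling in edgeR, 0.0466 by limma-voom, 0.0158 by limma-voom with sample weights and 0.0617 by DESeq2. The adjusted p-values were 0.306, 0.32, 0.13 and 0.42 in the same order. With 1 library left out the change stayed between 0.21 and 0.34, and it was 0.19 in the 7 shallower and 0.24 in the 3 deeper libraries. These counts were low, 46 to 239 per library. The spans of Fpgs and Eng also overlap. Reads from any sequence they share cannot be parted without the strand of counting, and overlap of their exons was not checked.

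Ggh (gamma-glutamyl hydrolase, chromosome 4, 19968857 to 19993897) removes the glutamates. It was at 8.91, 10.6, 12, 10.6 and 8.98 CPM in wildtype and at 11.6, 9.16, 9.63, 10.7 and 9.89 CPM in knockout. All 5 knockout values lay inside the wildtype range (log2 fold change 0.0076, SE 0.10, edgeR adjusted p 0.988, fold interval 0.867 to 1.17). The log2 ratio of Fpgs to Ggh in each library, a description with no test, was -0.025, -0.189, -1.02, -0.392 and -0.459 in wildtype and -0.152, 0.213, -0.213, -0.082 and -0.457 in knockout. Its mean was -0.42 ± 0.376 in wildtype and -0.14 ± 0.242 in knockout, with 4 of the 5 knockout values inside the wildtype range. Wildtype replicate 3 had the lowest Fpgs and the highest Ggh of its group, and without it the difference between the means was 0.13 in place of 0.28.

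In the cytosolic branch 7 of 8 genes were tested and none passed. Shmt1, the cytosolic serine hydroxymethyltransferase (chromosome 11, 60601606 to 60625220), was at 3.37, 2.81, 3.87, 3.05 and 2.80 CPM in wildtype and at 3.59, 3.42, 2.37, 4.70 and 5.13 CPM in knockout. The knockout libraries held both the lowest value, in replicate 3, and the highest values, in replicates 4 and 5. The difference rested on 18 to 111 counts per library and came to 0.30 on the log2 scale (SE 0.176, edgeR adjusted p 0.450). Leaving out knockout replicate 3 made it 0.39 (edgeR adjusted p 0.200). Its span overlaps that of Smcr8.

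Aldh1l1, which oxidises formyltetrahydrofolate and is widely used as an astrocyte marker, was the most abundant of the cytosolic genes per exon length. It was at 59.2, 54.8, 51.1, 54.0 and 50.3 CPM in wildtype and at 58.1, 54.0, 51.4, 65.3 and 60.3 CPM in knockout. The values of knockout replicates 4 and 5 were above the wildtype range and the rest inside it (log2 fold change 0.10, SE 0.067, edgeR adjusted p 0.507). The summed level of 6 other astrocyte markers was 1848 to 1928 CPM in wildtype and 1667 to 2048 CPM in knockout, with the highest sum in knockout replicate 4 and the lowest in knockout replicate 3. The part of astrocyte content in the Aldh1l1 values was not tested.

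The other cytosolic genes had smaller differences or few counts. Mthfd1, a trifunctional enzyme that interconverts the folate one-carbon forms, was at 43.8 ± 1.58 CPM in wildtype and 45.1 ± 3.34 CPM in knockout (n = 5 each, log2 fold change 0.044). Gart and Atic, which use formyltetrahydrofolate in purine synthesis, had log2 fold changes of -0.030 and -0.052, with fold intervals of 0.914 to 1.05 and 0.885 to 1.05. Gart was the steadiest gene of the set, at 32.0 to 33.8 CPM in wildtype and 31.9 to 32.7 CPM in knockout. Tyms, which makes thymidylate and is mostly expressed in dividing cells, was low, at 1.40 to 4.00 CPM in wildtype and 2.11 to 2.78 CPM in knockout (log2 fold change 0.090, SE 0.201). Mthfs, which returns formyltetrahydrofolate in its 5-formyl form to the pool, was at 2.19 to 3.01 and 1.85 to 3.42 CPM (log2 fold change 0.038, SE 0.162). Its level is uncertain, since a copy 99.4% identical over 98.2% of the transcript had about as many counts (119 in wildtype and 126 in knockout, beside 154 and 192 for Mthfs). Ftcd, an enzyme of histidine breakdown best known from liver, had 5 counts over the wildtype libraries and 2 over the knockout libraries.

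In the mitochondrial branch 10 of 11 genes were tested and none passed. Of the 10 log2 fold changes, 8 were below 0, and the median was -0.047. Over all tested genes 7036 of 14526 were below 0. Without knockout replicate 3 the count was 6 of 10 and the median -0.014. Shmt2, the mitochondrial serine hydroxymethyltransferase (chromosome 10, 126954195 to 126959491), was at 20.4, 18.1, 18.8, 21.0 and 18.7 CPM in wildtype and at 16.7, 17.4, 16.4, 21.0 and 18.9 CPM in knockout. Knockout replicates 1, 2 and 3 were below every wildtype library and the other two were inside the range. The log2 fold change was -0.093 (SE 0.080, edgeR adjusted p 0.624), or -0.063 with knockout replicate 3 left out. Its span overlaps that of Ndufa4l2.

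The mitochondrial enzymes downstream of Shmt2 did not pass either. Mthfd2 and its isozyme Mthfd2l, which oxidise methylenetetrahydrofolate, had log2 fold changes of -0.0090 (SE 0.109) and 0.0021 (SE 0.110). Mthfd1l, which releases formate from the mitochondrion's folate pool, had -0.019 (SE 0.085). Aldh1l2, the mitochondrial counterpart of Aldh1l1, had -0.10 (SE 0.099), which was -0.059 without knockout replicate 3 and -0.21 in the 7 shallower libraries. Its lowest values were 11.5 CPM in knockout replicate 5 and 12.1 CPM in knockout replicate 3, below the wildtype range of 13.0 to 16.6 CPM. The Aldh1l2 transcript shares 1056 identical bases with that of D10Wsu102e.

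The glycine cleavage system breaks glycine down in mitochondria and passes its carbon to folate. Its subunits Gldc, Amt and Gcsh had log2 fold changes of -0.035, -0.059 and 0.014, and all 3 intervals lay within a 1.2-fold change. Dld, the dihydrolipoamide dehydrogenase that glycine cleavage shares with pyruvate dehydrogenase, was the most abundant mitochondrial gene per exon length. It was at 118.2, 145.0, 142.3, 129.8 and 135.8 CPM in wildtype and at 135.4, 118.5, 126.9, 118.4 and 125.0 CPM in knockout. Every knockout value fell inside the wildtype range, which wildtype replicate 1 widened at its lower end (log2 fold change -0.10, SE 0.059, edgeR adjusted p 0.429). The log2 difference was -0.098 in the 7 shallower libraries and 0.0032 in the 3 deeper ones. Sardh, which demethylates sarcosine, had -0.062 (SE 0.090), and its partner in choline breakdown, Dmgdh, had 22 and 20 counts in all over the groups and was not tested.

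The balance of the branches was read as the log2 ratio of the summed CPM of Shmt2, Mthfd2, Mthfd2l and Mthfd1l to that of Shmt1 and Mthfd1. It was 0.101, 0.228, 0.057, 0.210 and 0.114 in wildtype and 0.085, -0.046, 0.017, 0.106 and 0.0065 in knockout. Knockout replicates 1 and 4 were inside the wildtype range and the other 3 below it. The means were 0.14 ± 0.074 and 0.034 ± 0.062 (SD, n = 5 each), a difference of -0.11, which ran from -0.13 to -0.087 with 1 library left out and was -0.12 in the 7 shallower libraries. This ratio was made from genes already examined one by one, so it was given no test.

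**Figure D2:**
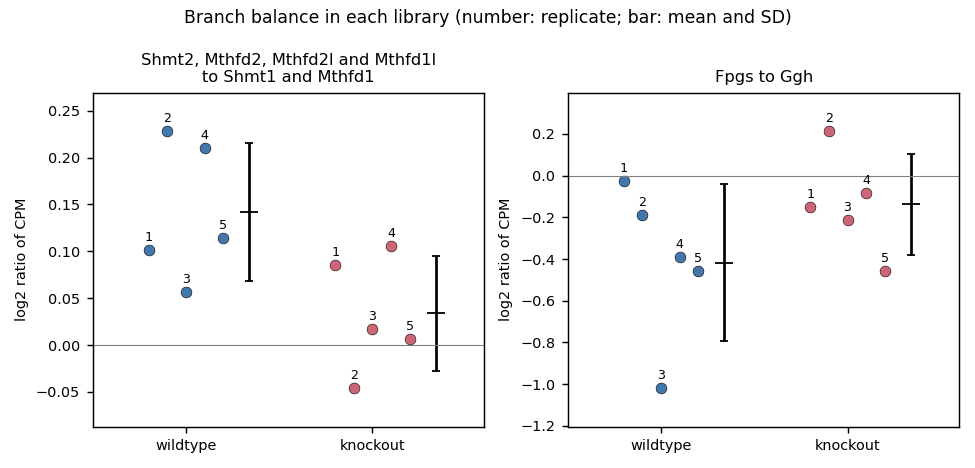
Log2 ratio in each library of the mitochondrial to the cytosolic genes (left) and of Fpgs to Ggh (right), with mean and SD beside the 5 points of each group and replicate numbers above the points. The groups overlap in both, with means of 0.14 and 0.034 on the left and -0.42 and -0.14 on the right.

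The methionine cycle held the one gene with an unadjusted p under 0.05 in the reported edgeR fit over all 10 libraries. Mat2a (ENSMUSG00000053907, chromosome 6, 72382793 to 72389552) encodes the catalytic subunit of the methionine adenosyltransferase that makes S-adenosylmethionine outside the liver. In human cells its RNA is known to be controlled by the retention of an intron, according to the supply of S-adenosylmethionine. It was at 241.1, 250.6, 251.1, 258.2 and 266.0 CPM in wildtype and at 221.6, 204.2, 225.2, 242.0 and 236.2 CPM in knockout. Of the knockout libraries 4 were below every wildtype library, and knockout replicate 4 was just above the lowest, wildtype replicate 1. The means were 253.4 ± 9.30 and 225.8 ± 14.6 CPM (SD, n = 5 each), a log2 fold change of -0.17 (SE 0.049), or 0.891-fold with an interval of 0.829 to 0.959.

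The edgeR p of Mat2a was 0.00428, and after adjustment over all genes it was 0.129. With 1 library left out the log2 fold change stayed between -0.19 and -0.13, with adjusted p-values of 0.0896 to 0.282. It was -0.17 in the 7 shallower libraries and -0.12 in the 3 deeper ones. DESeq2 gave an adjusted p of 0.0743, and limma-voom with sample weights, which called 563 genes in all against 171 by edgeR, gave 0.0257. The table holds a single count per gene, so spliced and intron-retaining forms of Mat2a cannot be told apart. Gm9523 matches 31.4% of the Mat2a transcript at 95.2% identity and Particl shares 211 identical bases with it, and neither has counts in the table. Reads shared with them were not examined. Mat2b, the regulatory subunit, had a log2 fold change of 0.028 (SE 0.048), with its highest value, 119.0 CPM, in knockout replicate 3.

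Hydrolysis of S-adenosylhomocysteine, the product of methylation, falls to Ahcy. Ahcyl1 and Ahcyl2 are its relatives, and Ahcyl1 is known as a partner of the inositol trisphosphate receptor. Ahcyl1 was the most abundant gene of the set, at 477.0, 500.2, 491.6, 503.3 and 490.1 CPM in wildtype and at 507.3, 484.8, 446.8, 514.3 and 534.0 CPM in knockout. The knockout libraries spread to both sides of the narrow wildtype range, with replicate 3 lowest (log2 fold change 0.015, SE 0.047, edgeR adjusted p 0.927). Ahcyl2 had -0.018 (SE 0.042). Ahcy was at 7.76 ± 1.34 and 8.09 ± 0.525 CPM (log2 fold change 0.0040, SE 0.115). Its difference was -0.31 among the 3 deeper and 0.17 among the 7 shallower libraries. The level of Ahcy is uncertain, because the copy Gm4737 matches 81.9% of its transcript at 99.7% identity and reads that fit both may have been dropped or split.

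The remaining genes of homocysteine metabolism did not differ detectably. Mtr, methionine synthase, and Mtrr, which reactivates it, had log2 fold changes of -0.051 (SE 0.092) and -0.092 (SE 0.094). Cbs, which commits homocysteine to cysteine synthesis, was at 25.7, 20.9, 23.2, 24.3 and 24.9 CPM in wildtype and at 26.3, 23.0, 25.5, 28.7 and 22.3 CPM in knockout. Knockout replicates 1 and 4 were above the wildtype range (log2 fold change 0.079, SE 0.080, edgeR adjusted p 0.691). Gnmt, a glycine methyltransferase best known from liver, had 4 to 52 counts per library and a log2 fold change of 0.29 (SE 0.310). It was at 0.516 to 1.83 CPM in wildtype and 0.528 to 2.20 CPM in knockout, and its difference was 0.59 in the deeper and -0.39 in the shallower libraries. The liver genes Alb, Apoa2 and Serpina1a had at most 6 counts in any library.

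All 3 genes of serine synthesis had fold changes above 0, without passing. Phgdh, which commits a glycolytic intermediate to serine (chromosome 3, 98117093 to 98143913), was at 42.5, 36.3, 36.6, 37.0 and 35.4 CPM in wildtype and at 40.0, 38.5, 43.1, 44.9 and 41.0 CPM in knockout. Every knockout library was above 4 of the 5 wildtype libraries, and wildtype replicate 1 lay among the knockouts. The log2 fold change was 0.14 (SE 0.064, edgeR p 0.0506, adjusted p 0.340). Without wildtype replicate 1 it was 0.19 (adjusted p 0.114), and among the 3 deeper libraries, where that replicate is the only wildtype, it was -0.031, against 0.19 in the other 7. Copies of Phgdh cover over 80% of its transcript at 95.3% to 98.7% identity, but those present in the table had at most 4 counts over a group.

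Psph, which completes serine synthesis, was at 14.5, 16.4, 15.4, 15.1 and 14.0 CPM in wildtype and at 15.9, 15.5, 15.8, 16.2 and 17.6 CPM in knockout. All 5 knockout values were above the wildtype mean of 15.1 CPM and 4 were inside the wildtype range (log2 fold change 0.10, SE 0.068, edgeR adjusted p 0.510). It shares 452 identical transcript bases with Cct6a. Psat1, the transaminase between them, was at 112.8, 116.4, 112.8, 117.0 and 117.7 CPM in wildtype and at 121.9, 111.8, 114.4, 124.7 and 119.8 CPM in knockout. In 3 knockout libraries it exceeded the wildtype range and in replicate 2 it was just below (log2 fold change 0.040, SE 0.043, fold interval 0.965 to 1.09).

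**Figure D3:**
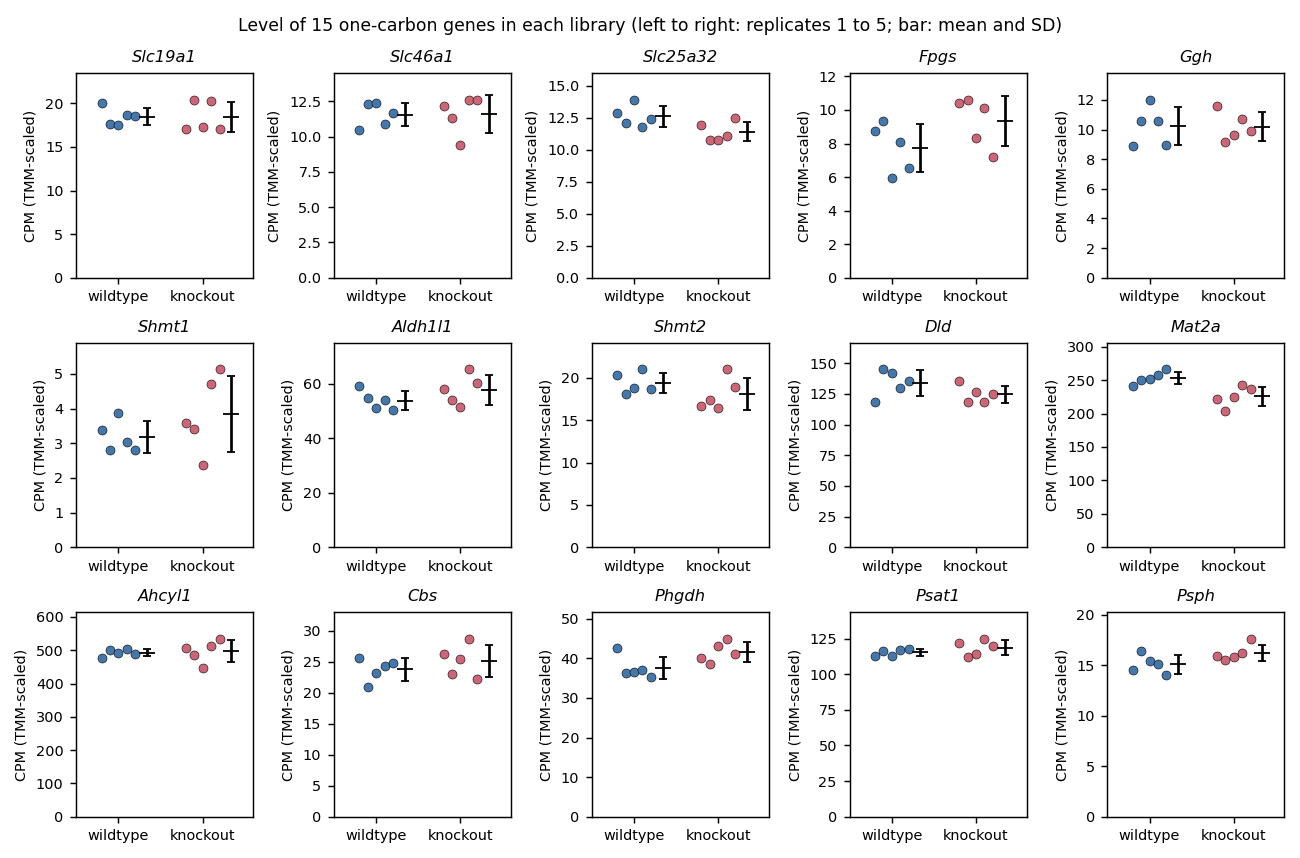
Level in CPM of the 15 one-carbon genes described library by library, with replicates 1 to 5 of each group from left to right and the mean and SD beside them. Axes start at 0. The groups overlap in every panel. In Mat2a, wildtype libraries were at 241.1 to 266.0 CPM and knockout libraries at 204.2 to 242.0 CPM.

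Levels of different genes were compared per kb of exon, using union exon lengths from GENCODE M21, which matched all 36 genes by Ensembl ID. A union length counts every annotated exon and can far exceed the length of a transcript. For Mthfs it was 7638 bases, while 801 bases aligned to a copy made up 98.2% of its longest coding transcript. For Ahcyl2 it was 18255 bases, and there 282 aligned bases made up 5.47%. Ranks and ratios per kb thus depend on the lengths used, and other lengths were not tried. The order began with Ahcyl1 at 74.0 CPM per kb, Mat2a at 53.4, Dld at 35.2, Psat1 at 27.5, Gcsh at 24.5 and Mat2b at 21.8 CPM per kb, as means of the 10 libraries. Among the tested genes it ended with Shmt1 at 0.904, Tyms at 0.409 and Mthfs at 0.344 CPM per kb. Of the folate carriers, Slc19a1 was at 3.98, Slc46a1 at 3.76 and Slc25a32 at 1.98 CPM per kb, and Ggh at 5.20 was above Fpgs at 2.24.

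Isozymes of the mitochondrion and the cytosol were unequal in a fixed order. Per kb of exon, Shmt2 exceeded Shmt1 by 4.61-fold to 8.60-fold in the 10 libraries, with a mean of 7.73 ± 0.998 in wildtype and 6.19 ± 1.49 in knockout (SD, n = 5 each). Mthfd1 exceeded Mthfd1l by 2.16-fold to 2.99-fold, and Aldh1l1 exceeded Aldh1l2 by 5.04-fold to 8.73-fold. Thus, by union exon length, the mitochondrial isozyme was the higher for serine hydroxymethyltransferase and the cytosolic one for the others. Mthfd2 exceeded Mthfd2l by 1.66-fold to 2.94-fold. Mat2a exceeded Mat2b by 2.56-fold to 2.79-fold in wildtype and 2.10-fold to 2.69-fold in knockout.

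**Figure D4:**
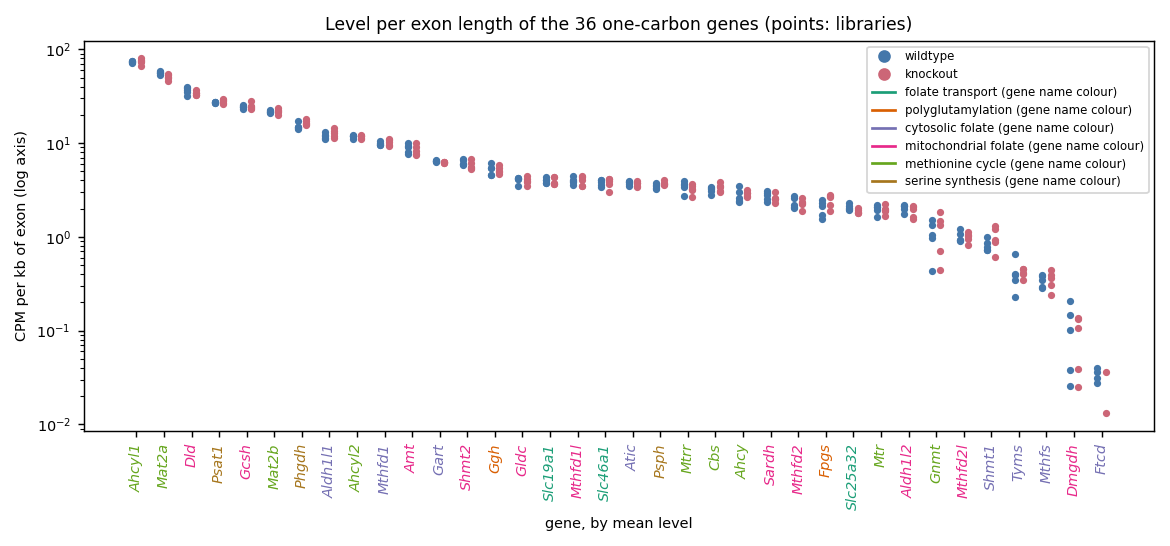
CPM per kb of union exon length (log axis) of all 36 one-carbon genes in each library, ordered by mean level. Wildtype and knockout libraries are side by side and gene names are coloured by branch. The order depends on the lengths used. Values of 0 are not drawn. The order runs from Ahcyl1 at 74.0 to Mthfs at 0.344 CPM per kb among tested genes, with the untested Dmgdh and Ftcd below, and the groups overlap throughout.

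Knockout replicate 3 had the lowest value of the 10 libraries in 11 of the 34 genes and the highest in 1. The 11 were Slc46a1, Shmt1, Mthfd1, Mthfs, Shmt2, Mthfd2, Mthfd2l, Gldc, Sardh, Mtrr and Ahcyl1, and the 1 was Mat2b. The other libraries were lowest in 0 to 5 genes, and knockout replicate 5 was highest in 9. Leaving out knockout replicate 3 turned the sign of 4 log2 fold changes, which became 0.038 for Mthfd2, 0.0075 for Mthfd1l, -0.00012 for Mat2b and -0.011 for Ahcy, and no gene of the set passed without it. It moved others by over 1.5 times without turning them. Among those below 0, Aldh1l2 has been given, Mtrr went from -0.092 to -0.043, Sardh from -0.062 to -0.025, Amt from -0.059 to -0.034 and Gldc from -0.035 to -0.0029. Among those above 0, Slc46a1 has been given, Mthfd1 went from 0.044 to 0.073, Mthfs from 0.038 to 0.11, Ahcyl1 from 0.015 to 0.052 and Slc19a1 from 0.015 to 0.042. Mthfd2l went from 0.0021 to 0.050, Ggh from 0.0076 to 0.023 and Gcsh from 0.014 to 0.022. That library stood apart on the first principal component, with a score of 42.0 against -6.86 to -2.53. As the only library with a low cerebellar marker level, it cannot show whether these values follow that level. The same library had the lowest astrocyte marker sum, 1667 CPM, and the highest microglial marker sum, 229.8 CPM. The part of any of these in the values was not tested.

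**Figure D5:**
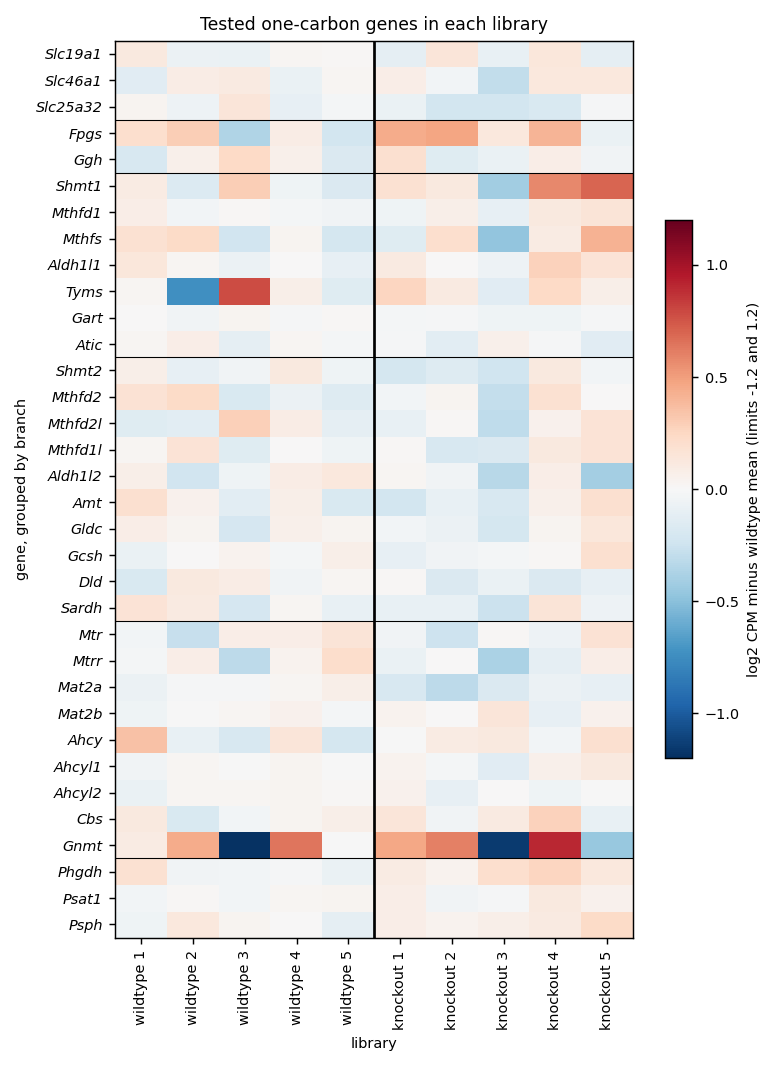
Log2 CPM of the 34 tested one-carbon genes in each library minus the wildtype mean of the gene, grouped by branch, with blue for lower and red for higher. The values run from -1.19 to 0.906 and the extremes belong to the low-count gene Gnmt, while knockout replicate 3 has the lowest value of its row in 11 genes.

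Among the cell type marker lists, those of microglia and meninges held the most genes at an unadjusted p under 0.05. Over 6 microglial markers the summed level was 156.7 to 173.9 CPM in wildtype and 188.0 to 229.8 CPM in knockout. At an unadjusted p under 0.05, 5 of 6 were higher, 2 of them with an edgeR adjusted p under 0.05. Over all tested genes the shares on the higher side were 6.74% and 0.213%. Over 5 meningeal markers the summed level was 163.6 to 191.5 and 126.3 to 170.9 CPM. Of these, 3 of 5 were lower at an unadjusted p under 0.05, beside 8.03% of all tested genes. For 6 markers of choroid plexus, a site of folate transport into the cerebrospinal fluid, the sum was 553.2 to 656.3 and 530.2 to 651.2 CPM. None of them had an unadjusted p under 0.05. The part of these cell types in the values of Slc19a1, Slc46a1 or any other gene of the set was not tested.

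A wider list held 59 genes of the same and adjoining pathways, and none of them passed. Of the 54 tested, none had an edgeR adjusted p under 0.05, and at an unadjusted p under 0.05 there were 1 higher and 3 lower, beside 6.74% and 8.03% of all tested genes. DESeq2 and limma-voom called none, and limma-voom with sample weights called 1, Amd1. The median log2 fold change was 7.11e-05. No gene of folate uptake and cobalamin handling or of serine and glycine handling was among the 4. Folr1, a folate receptor that is also one of the choroid plexus markers above, differed by 0.016 on the log2 scale (SE 0.142, edgeR adjusted p 0.977). Without knockout replicate 3 the difference was 0.062.

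Chdh, which oxidises choline on the way to the methyl donor betaine, had the smallest p of these. It was at 8.91, 9.62, 7.87, 7.85 and 8.28 CPM in wildtype and at 6.72, 7.20, 6.73, 6.65 and 5.13 CPM in knockout. The groups did not overlap (log2 fold change -0.37, SE 0.102, edgeR adjusted p 0.0931), and the difference was -0.36 in the deeper and -0.44 in the shallower libraries. Its span overlaps that of Cacna1d. Amd1, which decarboxylates S-adenosylmethionine for polyamine synthesis, was at 36.6, 41.0, 44.0, 44.8 and 46.7 CPM in wildtype and at 40.2, 34.9, 38.1, 35.0 and 33.8 CPM in knockout. Only knockout replicates 1 and 3 reached into the wildtype range (log2 fold change -0.22, SE 0.071, edgeR adjusted p 0.153). Leaving out wildtype replicate 1 lowered that adjusted p to 0.0422, and with other libraries left out it reached 0.325. The log2 difference was -0.24 in the 7 shallower and -0.068 in the 3 deeper libraries, and reads shared with the copy Amd2 were not examined. Tk2, the mitochondrial thymidine kinase, was at 32.7, 35.3, 28.1, 32.8 and 32.6 CPM in wildtype and at 38.0, 38.2, 34.8, 36.1 and 37.7 CPM in knockout. Of the knockout values 4 were above every wildtype library (log2 fold change 0.19, SE 0.060, edgeR adjusted p 0.149). Ppat, which starts purine synthesis, had -0.21 (SE 0.076, edgeR adjusted p 0.217).

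In the authors' deposited table none of the 36 genes had an adjusted p under 0.05, and the lowest was 0.189, again for Mat2a. The authors' deposited table gave Mat2a a log2 fold change of -0.17, Fpgs 0.28, Shmt1 0.27 and Phgdh 0.13.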

How the data were processed

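Brain RNA of 5 wildtype and 5 Abcc5 knockout mice was analysed from a table of counts per Ensembl gene deposited by the authors. The submitters' processing notes name TopHat2 2.0.6, HTSeq, edgeR and limma, while roles, settings, strand and genome build are not given in the sources used here. Log2 fold changes and adjusted p-values computed by the authors were read where intact. A further set of 10 columns under the same library names, with damaged numbers, was not used. No row lacked a gene name.

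Counts were fitted in R 4.3.3 with edgeR 4.0.16: filterByExpr (minimum count 10, minimum total 15), TMM and a quasi-likelihood test with genotype as its only term. The p-values of all 14526 tested genes were adjusted together (Benjamini-Hochberg). SEs and 95% intervals come from the F statistic and its degrees of freedom. Total counts were 7731294 to 23588335 per library. Replicates differed by more than counting error (chi-square per degree of freedom 1.27 to 11.3). Alternatives used limma 3.58.1 and DESeq2 1.42.0 and are given in the closing section. Near-identical copies were sought with blastn 2.17.0 (at least 200 bases at 95% identity) among GENCODE M21 transcripts.

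The members and lists were chosen with earlier results of these data known. Values per library are given for the folate carriers, Fpgs and Ggh, any member with an unadjusted p under 0.05, and in each branch the 2 smallest p-values and the highest CPM per kb. Related genes are named at an adjusted p under 0.05 or an unadjusted p under 0.01, and Ppat and Folr1 were named after their values were seen.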

Additional observations from a re-analysis of the deposited data

Results flagged for a closer look

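In a group of 5 libraries, a value was singled out where its gap to the nearest other exceeded 0.71 of the group's range, which chance gives in about 1 of 20 groups, and 4 of 82 groups held one. Wildtype replicate 3 had 21.4 CPM of Gldc, against 25.1 to 25.9 CPM in the other wildtype libraries. Wildtype replicate 1 had 203.5 CPM of Ahcyl2, against 217.2 to 220.5 CPM. Wildtype replicate 1 also had 42.5 CPM of Phgdh, against 35.4 to 37.0 CPM. Knockout replicate 5 had 5.13 CPM of Chdh, against 6.65 to 7.20 CPM in the other knockout libraries.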

How the results depend on the processing

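Of 374 values of members under settings other than leaving out a library, 354 kept their direction and their side of the threshold, 19 turned sign and 1 passed, Mat2a by limma-voom with sample weights (log2 fold change -0.20, adjusted p 0.0257), so that 1 member was called there against 0 in the reported fit. The cause was not tested. No member was called under any other setting. The 19 that turned were all uncalled. The setting with an adjusted p threshold of 0.1 reused the reported fit, so its values could not turn sign. Shmt1, Mthfs, Tyms and Gnmt had no adjusted p from DESeq2 and were counted there as not called. In the 7 libraries of lower total count the log2 fold changes that turned were -0.078 for Slc19a1, -0.046 for Slc46a1, -0.021 for Ggh, -0.099 for Mthfd2l, 0.0032 for Mthfd1l, 0.039 for Mtr, -0.000667 for Ahcyl1 and -0.39 for Gnmt. With depth class as a term they were -0.036 for Slc19a1, -0.014 for Mthfs, -0.038 for Ahcy and 0.0018 for Ahcyl2. Mthfd2 had 0.0084 under upper-quartile scaling and 0.045 by limma-voom with sample weights, where Ggh had -0.030 and Gcsh -0.0044. Mthfd2l had -0.0023 by DESeq2 and Ahcy -0.0077 by limma-voom. Replicate numbers did not pair the libraries (same-number correlations -0.138 to 0.0893), and with the number as a block 90 genes were called in place of 171, no member was called and Mthfd2l turned to -0.013.

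With 1 library left out, 299 of 340 member values kept direction and side of the threshold and 41 turned sign. The ranges of those genes were -0.046 to 0.13 for Ahcy, -0.014 to 0.052 for Ahcyl1, -0.040 to 0.0015 for Ahcyl2, -0.11 to 0.0012 for Amt, -0.032 to 0.037 for Gcsh, -0.055 to 0.058 for Ggh, -0.00012 to 0.062 for Mat2b, -0.068 to 0.038 for Mthfd1l, -0.076 to 0.049 for Mthfd2, -0.046 to 0.061 for Mthfd2l, -0.025 to 0.11 for Mthfs, -0.11 to 0.013 for Mtr, -0.027 to 0.053 for Slc19a1, -0.0093 to 0.086 for Slc46a1 and -0.042 to 0.26 for Tyms. The median of the members ran from -0.024 to 0.023. Genes called in all ran from 76 to 341. They were 563 by limma-voom with sample weights, 261 by DESeq2, 373 at an adjusted p of 0.1 and 31 in the 7 shallower libraries. Related genes called ran from 0 to 1 with a library left out (Amd1 without wildtype replicate 1), and were 1 by limma-voom with sample weights (Amd1) and 1 at an adjusted p of 0.1 (Chdh). Low counts limit Shmt1, Gnmt, Tyms and Mthfs most.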
